A study of Homo sapiens with 4 samples.

Results

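The CCN genes encode a family of 6 secreted matricellular proteins, CTGF, CYR61, NOV, WISP1, WISP2 and WISP3, now also named CCN2, CCN1, CCN3, CCN4, CCN5 and CCN6. They were found by gene symbol, and all 6 members were present among 57905 gene identifiers. Their messenger RNA was followed in 4 libraries of cells labelled as MG63, an established human osteosarcoma line, grown in serum-containing medium and harvested 48 hours after transfection. The siKLF11 group (2 libraries, labelled KLF11-knockdown) received an siRNA against KLF11, a Krüppel-like zinc finger protein that binds GC-rich DNA, and the siNC group (2 libraries, labelled control) received a control siRNA. The title of the series links low KLF11 to a stem-like cell identity and to YAP activity, and CTGF and CYR61 are the most widely used readouts of YAP. The labels describe a single cell line and give neither the siRNA sequences nor separate cultures for the replicates, so every p-value here rests on a spread between libraries that may be only technical.

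CCN proteins are built from a shared set of modules, an insulin-like growth factor binding domain, a von Willebrand factor type C domain, a thrombospondin type 1 repeat and a C-terminal cystine knot, the last of which WISP2 lacks. They do not form fibres; they bind integrins, heparan sulphate proteoglycans and growth factors in the pericellular matrix and so alter adhesion, migration and growth factor signalling. CTGF and CYR61 are immediate early genes switched on by serum, TGF-beta, RhoA signalling and the co-activators YAP and TAZ, which reach DNA through TEAD proteins, and both are made by osteoblasts and chondrocytes in bone.

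Values are FPKM, fragment numbers scaled to gene length and to library size, and are comparable between genes because they are divided by gene length. Groups were compared with limma on log2(FPKM + 1) over 15320 genes with a mean of at least 1 FPKM, and a gene is said to have risen or fallen when its Benjamini-Hochberg adjusted p was under 0.05. The target of the siRNA, KLF11, stood at 5.49 and 6.74 FPKM in siKLF11 libraries and 12.3 and 12.4 FPKM in siNC libraries, so the groups did not overlap (log2 change -0.92, SE 0.139, adjusted p = 0.00951 from limma). Of all tested genes 35.2% were called, 13.5% as higher and 21.7% as lower in siKLF11 libraries, and the groups did not overlap for 73.4%. Across tested genes the median log2 change was -0.11. Scaling by median of ratios and quantile normalization shifted this median by 0.104 and 0.119, and 50.6% and 49.9% of calls were then rises, against 38.4% in the deposited scaling. The fall of KLF11 and the CCN changes below kept their sign under every scaling.

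The labelled cell type was checked against marker genes. Of 16 osteoblast and osteosarcoma markers, SPARC, VIM, ALPL, COL1A2 and COL5A2 were abundant. RUNX2, the master regulator of osteoblasts, was at 0.60 and 0.65 FPKM in siKLF11 and 0.03 and 0.02 FPKM in siNC libraries. COL3A1, PRRX1, POSTN, LUM and DCN were at or below 1.40 FPKM in every library. CDH11 and TWIST1 were at or below 1.44 FPKM in siNC libraries and higher in siKLF11 libraries. Markers of pluripotent cells were present in both groups, 12 of 12 above the filter, with summed levels of 3274.5 and 2750 FPKM in siKLF11 libraries against 2096 and 2066 FPKM in siNC libraries. POU5F1 was at 1364 and 1068 FPKM in siKLF11 and 186 and 177 FPKM in siNC libraries. High pluripotency markers beside low RUNX2 do not match the osteosarcoma label, and the identity of the cells was not tested. Markers of early endoderm summed to 1308 and 3060 FPKM in siKLF11 libraries against 5199 and 5162 FPKM in siNC libraries, and TTR was at 0 throughout. Most of these sums was CER1, which did not pass the test (adjusted p = 0.0543 from limma). Without CER1, a step chosen after seeing the data, they were 350.1 and 486 FPKM in siKLF11 libraries and 769 and 756 FPKM in siNC libraries. Epithelial markers, all 14 above the filter, summed to 1299.8 and 1560 FPKM in siKLF11 and 2817 and 2608 FPKM in siNC libraries. No leukocyte marker passed 0.4 FPKM, and 7 endothelial markers summed to 20.5 and 15.1 FPKM in siKLF11 and 22.0 and 20.0 FPKM in siNC libraries. Of tested markers, 3 of 10 osteoblast genes rose and 1 fell, 7 of 12 pluripotency genes rose and 3 fell, and 1 of 10 endoderm genes rose and 6 fell. Of 14 epithelial genes 11 fell, and of 3 endothelial genes 1 rose and 1 fell. Over all tested genes 13.5% were higher and 21.7% lower. The rises of TWIST1 and the endothelial gene TEK passed the filter only through siKLF11 libraries, and the fall of CLDN3 only through siNC libraries. With TPM scaling the osteoblast list had 3 rises and 2 falls, and the endoderm list 0 rises and 8 falls. Levels within these lists were uneven, and FOXA1 and CLDN4, for example, stayed under 2 FPKM in every library. Pluripotency genes mostly rose, and endoderm and epithelial genes mostly fell, between the same groups in which CTGF and CYR61 rose. In the osteoblast list 6 genes did not pass. The part of these lists in the CCN result was not tested. In bulk RNA, fewer cells of a type and less RNA per cell cannot be told apart.

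CTGF, a secreted protein that promotes matrix production and fibrosis, was the most abundant member and rose the most. It measured 251.5 and 250.8 FPKM in siKLF11 libraries and 22.8 and 23.0 FPKM in siNC libraries. Replicates nearly coincided, and no siKLF11 library came near a siNC library. It averaged 251 ± 0.523 FPKM in siKLF11 and 22.9 ± 0.141 FPKM in siNC libraries (SD, n = 2 each), a 10.9-fold higher level with KLF11 siRNA. On the log2 scale the change was 3.40 (SE 0.0769), and its adjusted p from limma was 0.000446. Only 19 of the 15320 tested genes had a larger rise. In level, 338 and 315 genes lay above CTGF in siKLF11 libraries, against 4513 and 4354 genes in siNC libraries.

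CYR61, the CCN protein best known for supporting cell adhesion and angiogenesis through integrins, rose with it. Its levels were 103.8 and 94.2 FPKM in siKLF11 libraries and 15.8 and 15.2 FPKM in siNC libraries. The groups were again far apart, and the siKLF11 replicates differed by a factor of 1.10. It averaged 99.0 ± 6.78 FPKM in siKLF11 and 15.5 ± 0.375 FPKM in siNC libraries (SD, n = 2 each), 6.39-fold higher with KLF11 siRNA, with a log2 change of 2.60 (SE 0.0934, adjusted p = 0.00072 from limma). A larger rise was seen in 66 tested genes. Relative to the median of all tested genes, the log2 changes were 3.51 for CTGF and 2.71 for CYR61.

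The calls of both genes rest on having both control libraries. Without siNC replicate 1 the adjusted p was 0.0663 for CTGF and 0.0723 for CYR61, and without siNC replicate 2 it was 0.0613 and 0.0692, while the log2 changes stayed between 3.39 and 3.40 for CTGF and between 2.57 and 2.62 for CYR61. In either of these fits limma called 0 genes of 15320, although 4461 and 4793 had an unadjusted p under 0.05. With 2 libraries a group, the smallest two-sided p of an exact permutation test is 0.333, so none was used.

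The balance between the pair also shifted. The ratio of CTGF to CYR61 was 2.42 and 2.66 in siKLF11 libraries and 1.45 and 1.51 in siNC libraries. The siKLF11 ratios were thus both higher, by more than the gap between replicates, and the fitted log2 change of CTGF exceeded that of CYR61 by 0.80. The ratio was not tested, because permutation over 4 libraries is too coarse to pass the threshold. CTGF held 70.7% and 72.6% of the family's summed FPKM in siKLF11 libraries, against 58.6% and 59.8% in siNC libraries. Together the 6 members made up 0.0602% and 0.0571% of the summed FPKM of all genes in siKLF11 libraries and 0.00674% and 0.00662% in siNC libraries.

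**Figure D1:**
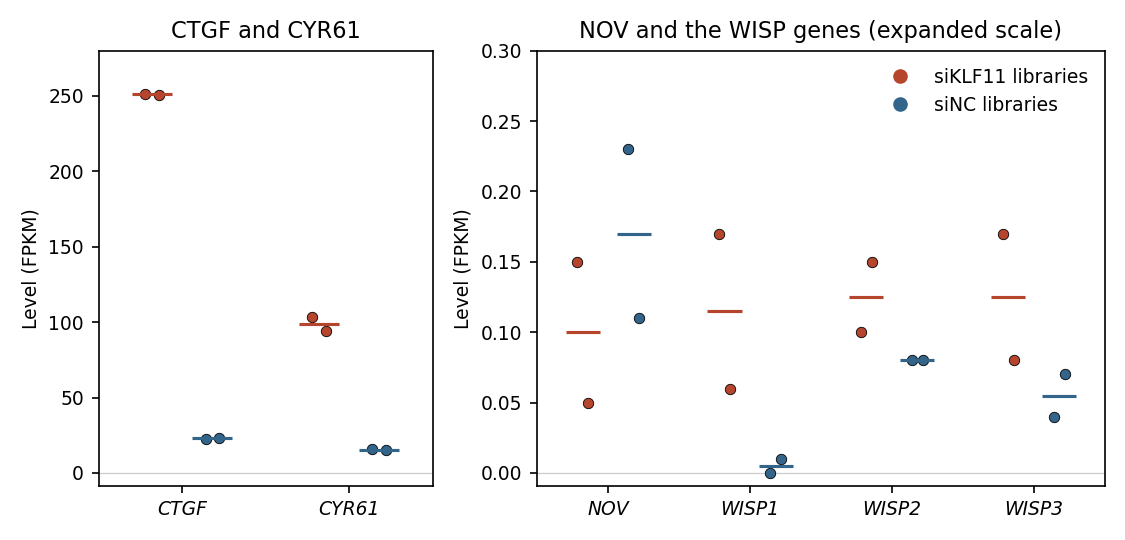
Level in FPKM of each CCN member in every library (points; lines are group means), siKLF11 left of siNC for each gene, with the scale of the right panel expanded. CTGF and CYR61 lie near 251 and 99.0 FPKM in siKLF11 libraries against 22.9 and 15.5 FPKM in siNC libraries, while the other members never exceed 0.23 FPKM.

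The remaining 4 members were near 0 in every library and did not reach the filter, so only their levels are given. NOV, a member first known from a nephroblastoma in birds, was at 0.15 and 0.05 FPKM in siKLF11 libraries and 0.23 and 0.11 FPKM in siNC libraries, and the groups overlapped. WISP1, a Wnt-inducible member found in bone and fibroblasts, was at 0.17 and 0.06 FPKM in siKLF11 libraries and at 0 and 0.01 FPKM in siNC libraries. Its siKLF11 values were the higher ones, but all lay within 0.2 FPKM of 0.

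WISP2, the member without a cystine knot, was at 0.10 and 0.15 FPKM in siKLF11 libraries and at 0.08 FPKM in both siNC libraries. WISP3, which is mutated in a childhood cartilage disease, progressive pseudorheumatoid dysplasia, was at 0.17 and 0.08 FPKM in siKLF11 libraries and 0.04 and 0.07 FPKM in siNC libraries. For WISP1, WISP2 and WISP3 the siKLF11 values lay above the siNC values without overlap, as was the case for 28.9% of tested genes, at low levels. Of all gene identifiers, 57.6% were at or under 0.23 FPKM, the highest value of these 4 members, in every library. With no filter, limma gave adjusted p-values of 0.565 for NOV, 0.254 for WISP1, 0.533 for WISP2 and 0.473 for WISP3. The deposited values have 2 decimals and no counts, so how many fragments these levels stand for is not known.

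In siKLF11 libraries the order of mean levels was therefore CTGF, CYR61, then WISP2 and WISP3 at 0.125 FPKM each, WISP1 at 0.115 and NOV at 0.1 FPKM. The last 4 were not separated from each other, since their libraries overlapped. In siNC libraries the order was CTGF, CYR61, then NOV at 0.17, WISP2 at 0.08, WISP3 at 0.055 and WISP1 at 0.005 FPKM, and the library values of neighbours in that order did not overlap. CTGF exceeded CYR61 in all 4 libraries, by more than the spread between replicates.

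**Figure D2:**
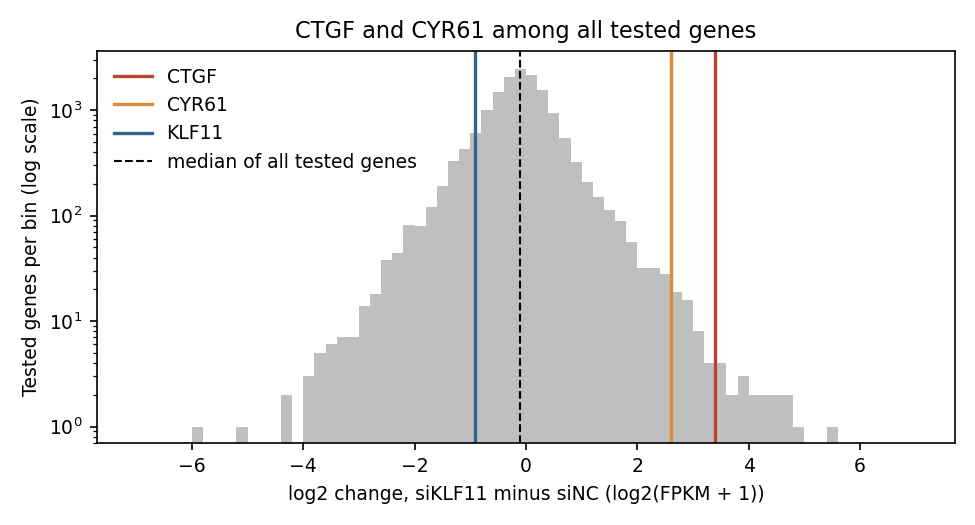
Histogram of the log2 change (siKLF11 minus siNC, log2(FPKM + 1)) of 15320 tested genes, with the number of genes per bin on a log scale and lines at CTGF, CYR61, KLF11 and the median. CTGF at 3.40 and CYR61 at 2.60 stand in the far right tail, with 19 and 66 genes beyond them, and KLF11 stands at -0.92.

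Promoter sequence was at hand for CTGF and WISP3, from RefSeq on GRCh38.p14, each from 250 bases before to 50 bases after the annotated start. No promoter sequence was at hand for the other members, CYR61 among them, so the pair was set by what was available. It places the member with the largest rise beside one that was near 0. Both genes lie on chromosome 6, CTGF on the minus strand at chr6:131951323-131951622 and WISP3 on the plus strand at chr6:112053854-112054153. The capitals mark matches to the TEAD motif CATTCC or its reverse GGAATG.
CTGF: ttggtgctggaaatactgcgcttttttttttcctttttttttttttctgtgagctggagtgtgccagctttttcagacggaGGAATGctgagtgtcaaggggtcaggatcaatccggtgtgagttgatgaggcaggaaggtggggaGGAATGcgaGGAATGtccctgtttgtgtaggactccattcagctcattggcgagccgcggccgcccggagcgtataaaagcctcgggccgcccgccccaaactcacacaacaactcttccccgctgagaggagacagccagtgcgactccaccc
WISP3: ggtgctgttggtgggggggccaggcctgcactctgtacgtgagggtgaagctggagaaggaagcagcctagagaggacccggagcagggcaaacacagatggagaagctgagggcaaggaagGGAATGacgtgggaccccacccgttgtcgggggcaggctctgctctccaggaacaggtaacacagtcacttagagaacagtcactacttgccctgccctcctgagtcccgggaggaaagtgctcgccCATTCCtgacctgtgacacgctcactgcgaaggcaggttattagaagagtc

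The CTGF window held 3 TEAD matches, beginning at positions -169, -104 and -95 from the start. Of 35116 promoters of this length, 14% held at least 1 match and 0.128% held 3 or more. The WISP3 window held 2 matches, one beginning at -128 and one across the start, a number that 1.37% of promoters reach.

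Other motifs were searched on both strands in the same windows. CTGF had 3 matches to the GC box GGGCGG, the type of site that Krüppel-like and SP factors bind, of which the pair nearest the start overlapped. This motif was in 45% of promoters, and WISP3 had none. The CACCC box, CACCC, another site of Krüppel-like factors, matched once in CTGF and 2 times in WISP3, and 59.9% of promoters held it. A TATAAA match beginning at -32 and a SMAD box CAGAC beginning at -177 were found in CTGF only, in 11.5% and 45.3% of promoters. Neither window held the AP-1 motif TGANTCA, the TCF and LEF motif TCAAAG or a CArG box, the site of SRF. Such matches are letters in a window and show no binding.

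Among tested genes with a promoter in the table, 9 had 3 or more TEAD matches. Of these, 2 rose, CTGF and SYDE1, and 4 fell, FHIT, C15orf38-AP3S2, ARPIN and EVI5L. C15orf38-AP3S2 is a read-through transcript that includes ARPIN, so their falls are not independent. SYDE1, singled out here after its value was seen, stood at 7.53 and 6.59 FPKM in siKLF11 libraries and 4.28 and 3.74 FPKM in siNC libraries. Genes with any number of matches, none included, rose in 14.3% and fell in 22.3% of 10605 cases. With 1 match the shares were 15% and 22.6%, and with 2 matches 18.7% and 24%.

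**Figure D3:**
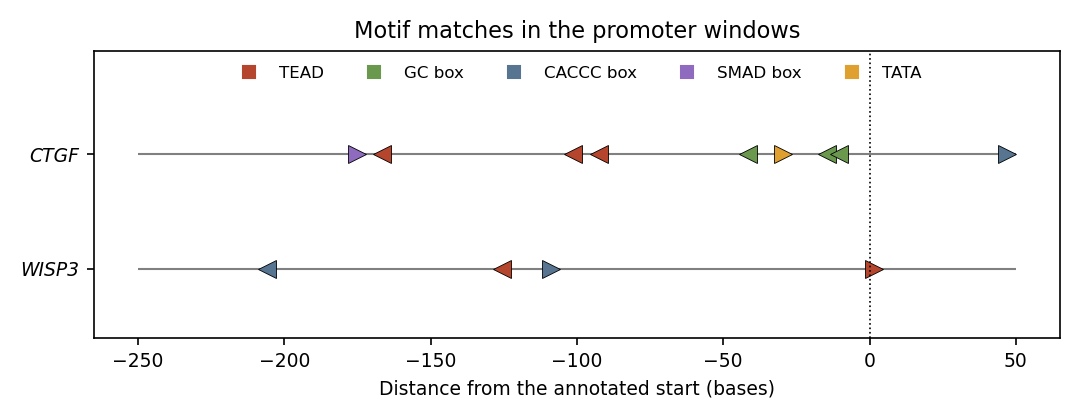
Positions of motif matches in the CTGF and WISP3 promoter windows by distance from the annotated start in bases; arrowheads point right for a match on the gene's strand and left for one on the other strand. CTGF carries 3 TEAD and 3 GC box matches, and WISP3 2 TEAD and 2 CACCC box matches.

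The coding genes on either side of each member were read next. CTGF lies between ENPP1, a pyrophosphate-generating enzyme that limits mineralisation, and MOXD1. ENPP1 was at 18.5 and 15.6 FPKM in siKLF11 and 14.9 and 14.9 FPKM in siNC libraries (adjusted p = 0.298 from limma), and MOXD1 stayed under 1 FPKM in every library. Of the pair, ENPP1 did not pass the test and MOXD1 was not tested. An antisense transcript over CTGF, AL133346.1, was at 1.89 and 0.94 FPKM in siKLF11 and 0.46 and 0.36 FPKM in siNC libraries, and without the strand setting its reads cannot be told from those of CTGF.

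CYR61 lies between DDAH1, an enzyme that breaks down an inhibitor of nitric oxide synthesis, and ZNHIT6, a factor of small nucleolar RNA assembly. DDAH1 rose as well, with 38.7 and 36.2 FPKM in siKLF11 libraries and 7.36 and 7.04 FPKM in siNC libraries, 5.20-fold higher (log2 change 2.23, SE 0.102, adjusted p = 0.00136 from limma). ZNHIT6 did not pass, at 8.74 and 7.83 FPKM in siKLF11 and 7.47 and 7.77 FPKM in siNC libraries. The CYR61 rise thus had a companion on its DDAH1 side and none on the other.

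Beside the members that were near 0, neighbours were often in use. Next to NOV, MAL2 and ENPP2 fell, MAL2 to 5.78 and 7.07 FPKM in siKLF11 libraries, against 27.2 and 30.1 FPKM in siNC libraries. Next to WISP1, NDRG1 did not pass and SLA was at most 0.05 FPKM. Next to WISP2, ADA was at 16.0 and 15.9 FPKM in siKLF11 and 14.1 and 13.2 FPKM in siNC libraries and did not pass, and KCNK15 was under 0.1 FPKM. WISP2 is overlapped by the antisense gene KCNK15-AS1, at 0.18 and 0.17 FPKM in siKLF11 and 0.89 and 1.06 FPKM in siNC libraries. Next to WISP3, FYN rose to 23.0 and 27.1 FPKM in siKLF11 libraries, against 18.6 and 14.4 FPKM in siNC libraries (adjusted p = 0.0398 from limma). The call was lost when limma had no variance trend (adjusted p = 0.0636) or no filter (0.118). It was also lost when any 1 library was left out, with FYN log2 changes from 0.41 to 0.75. TUBE1, which overlaps WISP3 on the other strand, did not pass, with 4.06 and 4.27 FPKM in siKLF11 and 4.57 and 6.96 FPKM in siNC libraries.

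**Figure D4:**
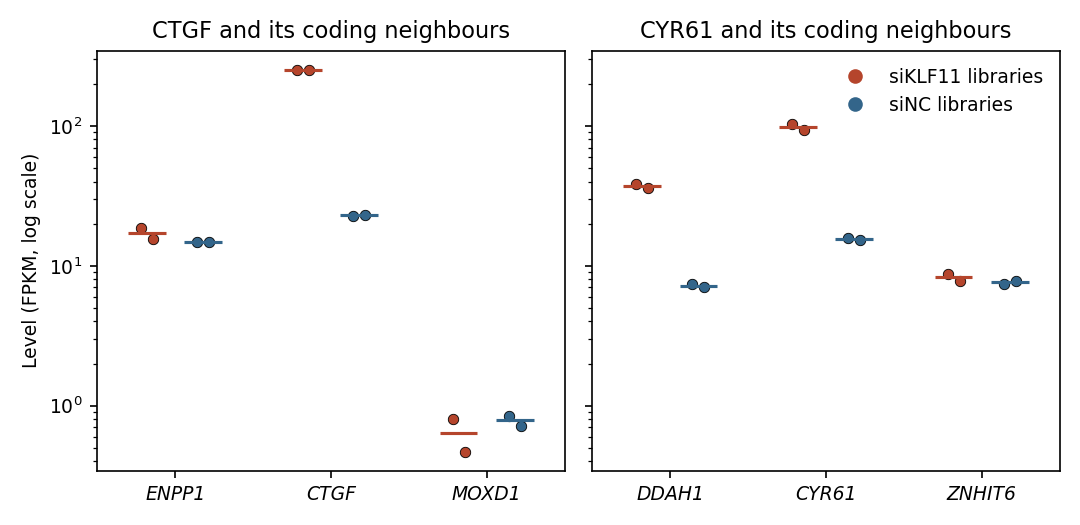
Level in FPKM (log scale) of CTGF, CYR61 and the coding genes on either side of them in every library (points; lines are group means), siKLF11 left of siNC. DDAH1 moves with CYR61, at 38.7 and 36.2 FPKM in siKLF11 against 7.36 and 7.04 FPKM in siNC libraries, while ENPP1 and ZNHIT6 did not pass the test and MOXD1 is under 1 FPKM.

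Genes with the most similar pattern were sought over the 4 libraries by the Euclidean distance between values of log2(FPKM + 1) after subtraction of the siNC mean. Nearest to CTGF were MIR4435-2HG, a long non-coding RNA (distance 0.0674), SYTL2, a vesicle-trafficking protein (0.192), and NTS, the precursor of neurotensin (0.195). SYTL2, at 0.46 and 0.70 FPKM in siNC libraries, passed the filter only through siKLF11 libraries. Its fold in FPKM was 27.8 against 10.9 for CTGF, and its closeness rests on the 1 added before the log. MIR4435-2HG, at 2.97 and 3.02 FPKM in siNC libraries, had a fold of 13.9, so its closeness rests partly on that 1 too. NTS was at 493 and 414 FPKM in siKLF11 libraries and 42.4 and 44.8 FPKM in siNC libraries. Nearest to CYR61 were VIM, a mesenchymal intermediate filament (0.136), NOX4, an oxidase that makes reactive oxygen species (0.161), and SPRY4, a feedback inhibitor of growth factor receptors (0.178). The fold in FPKM of NOX4 was 8.47 against 6.39 for CYR61, so the added 1 enters its closeness as well. VIM measured 808 and 799.9 FPKM in siKLF11 libraries and 144 and 131 FPKM in siNC libraries. CTGF and CYR61 lay 1.13 apart. With 4 libraries in 2 groups, such a distance measures little beyond the size of the change.

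The YAP, TAZ and TEAD list held both factors that carry the signal to CTGF and CYR61 and proteins that restrain it. All 20 genes were tested, of which 2 rose, 5 fell and 13 did not pass, shares near the 13.5% higher and 21.7% lower over all genes. The median log2 change was -0.0045 beside -0.11 over all genes. YAP1, the co-activator itself, fell to 74.6 and 76.1 FPKM in siKLF11 libraries, against 98.9 and 97.6 FPKM in siNC libraries (adjusted p = 0.0193), which median-of-ratios scaling put outside the threshold (adjusted p = 0.0527), as did a fit with no trend (0.0538), no filter (0.0504) and leaving out siNC replicate 1 (0.142) or 2 (0.125). WWTR1, encoding TAZ, was at 16.2 and 14.0 FPKM in siKLF11 and 11.9 and 12.5 FPKM in siNC libraries and did not pass. Of the TEAD genes, TEAD4 rose, TEAD2 fell to 84.8 and 87.7 FPKM in siKLF11 libraries, against 131 and 124 FPKM in siNC libraries, and TEAD1 and TEAD3 did not pass. VGLL3, a TEAD cofactor, rose and had passed the filter only through its siKLF11 values. AMOT, which holds YAP outside the nucleus, fell to 2.87 and 3.07 FPKM in siKLF11 libraries, against 9.59 and 9.03 FPKM in siNC libraries. The kinase gene STK3 and the tumour suppressor NF2 also fell, nearer the threshold (adjusted p = 0.0337 and 0.0411 from limma). The split depended on scaling, with 3 rises and 2 falls after median-of-ratios scaling and 3 of each after quantile normalization.

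Transcription factors and cytoskeletal signalling genes that act on CTGF and CYR61 through serum response and AP-1 elements formed the next list. Of 18 listed, 17 were tested, 6 rose, 0 fell and 11 did not pass, beside 13.5% higher and 21.7% lower over all genes. RHOB, a small GTPase of the actin cytoskeleton, was at 73.1 and 71.9 FPKM in siKLF11 libraries and 21.1 and 20.6 FPKM in siNC libraries. FOS, an AP-1 subunit, was at 6.51 and 6.43 FPKM in siKLF11 libraries and 1.61 and 1.51 FPKM in siNC libraries, and FOSL1, another AP-1 subunit, at 8.11 and 4.87 FPKM in siKLF11 and 0.62 and 0.60 FPKM in siNC libraries. The 3, named for the smallest p among the rises, did not overlap between groups, as was the case for 73.4% of tested genes. FOSL1 was among 2 listed genes that passed the filter only through siKLF11 libraries. SRF and its co-activator MKL1 did not pass, with 42.9 and 39.9 FPKM for SRF in siKLF11 and 34.8 and 32.8 FPKM in siNC libraries. TPM scaling gave 1 fall in this list beside 6 rises.

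TGF-beta induces both CTGF and KLF11, and of 12 listed genes of that pathway 11 were tested, 1 rose, 3 fell and 7 did not pass, near the 13.5% higher and 21.7% lower over all genes. The rise in this list was that of the ligand TGFB2, to 1.72 and 1.63 FPKM in siKLF11 libraries, against 0.45 and 0.27 FPKM in siNC libraries. TGFB2 passed the filter only through the siKLF11 group. The ligand TGFB1, counted below among binding partners and not here, also rose (adjusted p = 0.00973 from limma). It was at 78.6 and 87.5 FPKM in siKLF11 libraries and 55.4 and 52.6 FPKM in siNC libraries. The falls were SMAD2 and SMAD3, which carry the signal to the nucleus, and LTBP1, which tethers the latent ligand. SMAD2 stood at 33.7 and 34.2 FPKM in siKLF11 libraries and 52.0 and 51.3 FPKM in siNC libraries. SMAD3 was not called with median-of-ratios scaling (adjusted p = 0.0571), quantile normalization (0.0704), no filter (0.078) or without siKLF11 replicate 1 (0.0808), siNC replicate 1 (0.236) or siNC replicate 2 (0.149). Both scalings gave 2 rises and 2 falls in the list.

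The WISP genes were named for the Wnt pathway. All 10 listed genes of it were tested, 3 rose, 2 fell and 5 did not pass, beside 13.5% higher and 21.7% lower over all genes. DKK1, a secreted Wnt antagonist, was at 32.6 and 39.2 FPKM in siKLF11 libraries and 8.47 and 7.80 FPKM in siNC libraries, and LEF1, which reached the filter only through siKLF11 libraries, and the antagonist NKD1 rose too. TCF7L2 fell to 12.8 and 15.9 FPKM in siKLF11 libraries, against 41.3 and 34.0 FPKM in siNC libraries, and the receptor gene LGR5 fell as well. CTNNB1, encoding beta-catenin, did not pass.

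Cell-surface partners reported for CCN proteins went both ways. Of 20 listed genes 14 were tested, 4 rose, 6 fell and 4 did not pass, beside 13.5% higher and 21.7% lower over all genes. Their median log2 change was -0.12 beside -0.11 over all genes. ITGB1, the integrin subunit shared by many CCN receptors, rose to 373 and 365 FPKM in siKLF11 libraries, against 170.4 and 199 FPKM in siNC libraries. Its partner ITGAV rose to 55.5 and 63.9 FPKM in siKLF11 libraries, against 44.3 and 45.8 FPKM in siNC libraries, nearer the threshold (adjusted p = 0.0348 from limma). TNFRSF11B, the decoy receptor osteoprotegerin, and NOTCH1 were the other rises. ITGB5, which pairs with ITGAV, fell to 255 and 287 FPKM in siKLF11 libraries, against 425 and 403 FPKM in siNC libraries, and ITGA6 and FGFR2 fell too. ITGB3, ITGB2 and ITGAM stayed under 0.7 FPKM. By level, ITGB1, ITGB5, ITGAV and ITGA5 were the most abundant integrin subunits listed.

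Growth factors and matrix proteins that bind CCN proteins gave 2 rises and 4 falls among 10 tested of 15 listed, beside 13.5% higher and 21.7% lower over all genes. VEGFA, the angiogenic factor that CTGF can sequester, fell to 6.09 and 10.1 FPKM in siKLF11 libraries, against 73.7 and 69.8 FPKM in siNC libraries. BMP2, BMP7 and FBLN1 fell, and FGF2 and TGFB1 rose. FGF2 stood at 24.0 and 13.8 FPKM in siKLF11 libraries and 1.82 and 2.18 FPKM in siNC libraries. FN1, encoding fibronectin, did not pass.

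Proteases that cleave CCN proteins and release partners from them were mostly near 0. Of 13 listed, 8 were under the filter and 5 were tested, of which 4 rose and 1 did not pass, beside 13.5% higher over all genes. MMP2, a gelatinase, was at 161 and 91.5 FPKM in siKLF11 libraries and 16.3 and 12.5 FPKM in siNC libraries. PLAU, the urokinase, was at 24.4 and 27.0 FPKM in siKLF11 and 11.1 and 9.86 FPKM in siNC libraries. The other rises, PLAT and MMP9, had passed the filter only by their siKLF11 levels and could hardly have come out otherwise, and MMP14 did not pass.

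Proteins that share single modules with the CCN family went both ways, beside 13.5% higher and 21.7% lower over all genes. Among IGF-binding proteins, 9 of 11 listed were tested, 5 rose and 2 fell. IGFBP7, a matrix-bound member, rose to 144 and 105 FPKM in siKLF11 libraries, against 5.54 and 4.49 FPKM in siNC libraries. IGFBP2, IGFBP3, IGFBP4 and HTRA1 rose, with IGFBP4 nearest the threshold (adjusted p = 0.0354 from limma). IGFBP5 fell to 4.74 and 9.20 FPKM in siKLF11 libraries, against 75.2 and 74.0 FPKM in siNC libraries, and IGFBPL1 fell. Among thrombospondins and proteins with thrombospondin type 1 or von Willebrand type C modules, 11 of 16 listed were tested. Of these, 3 rose (THBS1, THBS2 and CRIM1) and 3 fell (THBS4, KCP and FRAS1). THBS4, listed with them, has neither module, and nor has THBS3, which did not pass. THBS1, a matricellular protein and YAP target, was at 19.1 and 14.3 FPKM in siKLF11 and 7.27 and 6.03 FPKM in siNC libraries. With median-of-ratios scaling or quantile normalization FRAS1 was not called, at adjusted p-values of 0.0658 and 0.0543, nor was it with no trend (0.0617), no filter (0.081) or without siKLF11 replicate 1 (0.0871), siNC replicate 1 (0.204) or siNC replicate 2 (0.116). Among cystine-knot proteins, 6 of 12 listed were tested, SLIT2 and the BMP antagonist GREM1 rose, and NBL1 and VWF were among those that fell. THBS2 and GREM1 reached the filter only through siKLF11 libraries, and THBS4 only through siNC libraries.

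**Figure D5:**
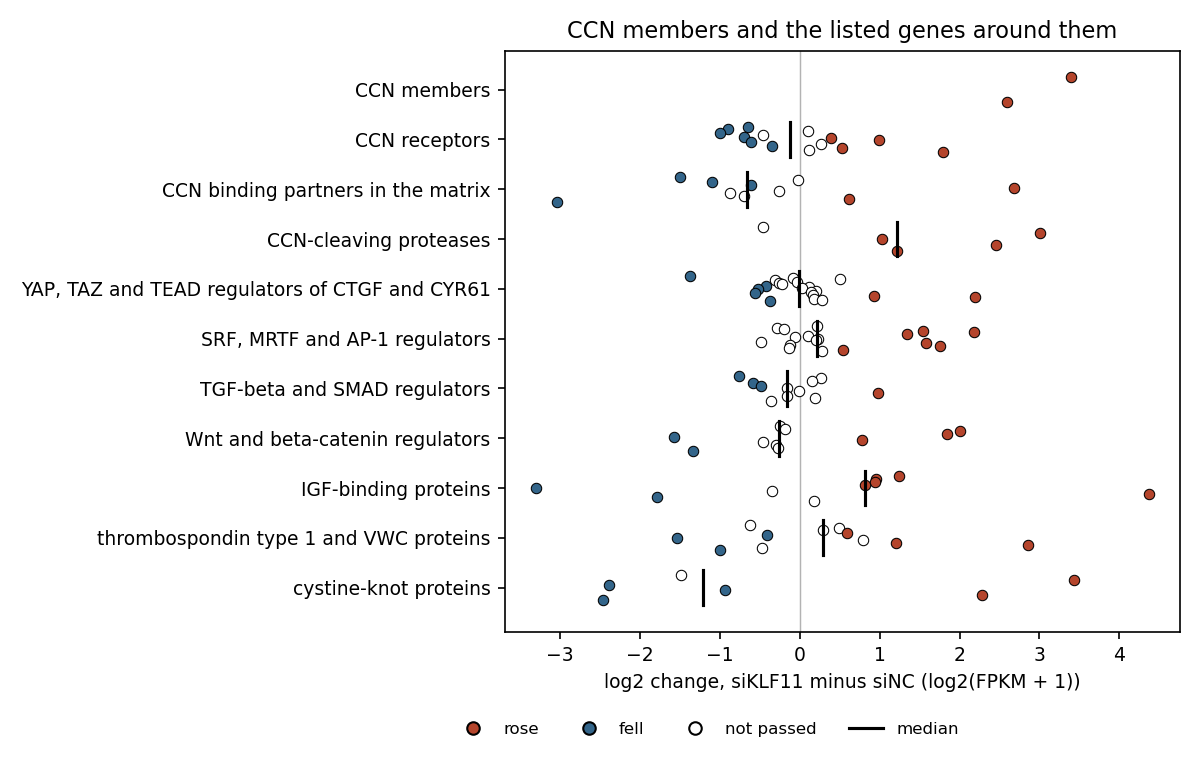
The log2 change (siKLF11 minus siNC, log2(FPKM + 1)) of every tested gene in the CCN family and in the 10 lists around it; fill shows the call and bars are list medians over tested genes. CTGF and CYR61 lie at 3.40 and 2.60, and among YAP, TAZ and TEAD regulators 13 of 20 genes did not pass.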

How the data were processed

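RNA-seq of polyadenylated RNA was analysed from a table of FPKM that the authors deposited for 4 libraries, with 2 decimals. Trim Galore 0.5.0, RSEM 1.3.1 and build hg19 (GRCh37) are named per the submitters' processing notes; no aligner, annotation release or strand setting is given in the sources used here. Summed FPKM ran from 577849 to 604498. The values keep no counts, so the depth is unknown.

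Columns were matched to samples by name, 0 unmatched. limma 3.58.1 (R 4.3.3) with a variance trend was fitted on log2(FPKM + 1), mean FPKM at least 1, and tested on simulated data. On this scale the change of low genes is understated. The named genes are the members, KLF11, YAP1, WWTR1, the TEAD genes, up to 3 called genes per direction and list, the 3 nearest patterns per called member, and coding neighbours from RefSeq (GRCh38.p14, order only); others in counts of 5 or fewer, and genes singled out as not passing, low or abundant, were chosen after their values were seen. The members and lists (223 genes) were chosen with earlier results of these data known, and 3 listed genes were not analysed here. The result of 1 other listed gene is not reported here. Gene overlaps come from GENCODE. A planned comparison of protein sequences was not made. The correlation of log2 values was 0.976 within siKLF11, 0.982 within siNC and 0.894 to 0.930 between groups, across genes, which are not independent replicates. Alternatives were other pseudocounts, filters, scalings and variance models, a replicate block, a minimum log2 change of 1 and each library left out. Figures were drawn with matplotlib 3.10.9.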

Additional observations from a re-analysis of the deposited data

How the results depend on the processing

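CTGF and CYR61 stayed higher and past the threshold under every alternative that kept all libraries, with log2 changes of 3.20 to 3.51 and 2.34 to 2.71. KLF11 stayed lower and past it as well, apart from the minimum log2 change of 1, which its change of -0.92 did not reach. With each library left out in turn the log2 change ran from 3.39 to 3.40 for CTGF, from 2.53 to 2.67 for CYR61 and from -1.04 to -0.79 for KLF11, and without siNC replicate 1 or 2 the calls were lost (KLF11 adjusted p = 0.116 and 0.113). The spread then rests on the siKLF11 pair alone, with the lone siNC library assumed to vary likewise. With a library left out, the members called ran from 0 to 2, all genes called higher from 0 to 2291 and lower from 0 to 3813. The list counts then ran from 0 to 9 for receptors, 0 to 8 for binding partners, 0 to 4 for proteases, 0 to 8 for YAP, TAZ and TEAD regulators, 0 to 7 for SRF, MRTF and AP-1 regulators, 0 to 4 for TGF-beta, 0 to 5 for Wnt, 0 to 7 for IGF-binding proteins, 0 to 9 for thrombospondin type 1 and VWC proteins and 0 to 6 for cystine-knot proteins.

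With no filter (34232 genes) 887 genes were higher and 1251 lower, and 4 receptors, 4 YAP regulators, 2 TGF-beta genes, 2 Wnt genes, 3 IGF-binding and 2 thrombospondin type 1 proteins were called. A filter of mean FPKM 5 left fewer genes tested, with 2 proteases, 2 SRF and AP-1 regulators, 3 Wnt genes and 3 thrombospondin type 1 proteins called. Asking for a log2 change of at least 1 left 716 genes higher and 1265 lower, with 2 receptors, 2 YAP regulators, 0 TGF-beta genes, 4 IGF-binding and 3 thrombospondin type 1 proteins. The TEAD3 log2 change, 0.16 with all libraries, ran from -0.031 to 0.36 with a library left out, the negative value without siNC replicate 2. The replicate numbers do not pair the samples (r of deviations -0.071), and with the number as a block 4351 genes were called against 5400, with adjusted p of 0.00183 for CTGF and 0.00199 for CYR61. The block ended the calls of FYN (0.0664), SMAD3 (0.0711) and FRAS1 (0.0669) among the genes named by rule. The depth is unknown, so whether NOV, WISP1, WISP2 and WISP3 differ was not detectable here.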
